A study of Mus musculus with 60 samples.

Results

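The integrated stress response genes described here are Ddit3, Trib3, Ddit4, Atf3, Atf4, Asns, Ppp1r15a, Herpud1, Sesn2 and Nupr1. They were chosen by name, as every array row annotated with one of these symbols or with the matching Entrez identifier. The names were picked with earlier results of these data known, so the counts given below are descriptive and no independent test. All 10 were found among the 15094 named genes of the arrays, each with 1 distinct probe, and all 10 were measured often enough to be tested. Atf4, Ddit3, Atf3, Ppp1r15a, Asns, Herpud1 and Nupr1 were on array part I, and Trib3, Ddit4 and Sesn2 on array part II. The labels give total RNA for part I and polyA RNA for part II.

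The arrays compared cultures of 5 mouse cell lines, for which the labels name no tissue. D7E and D7F were transfected with mutant Pabpn1, at an amount the labels call high in D7E and low in D7F. WTA and WTD were transfected with wild-type Pabpn1, high in WTA and low in WTD. IM2 was not transfected, and RNA of IM2 was also the common reference on every array. The product of Pabpn1 binds poly(A) tails in the nucleus, and mutations of the gene cause OPMD (oculopharyngeal muscular dystrophy), the disease that the labels give. Each line was grown as 3 cultures, and each culture was hybridised to both parts in both dye orientations, which made 60 arrays. Each combination of genotype and amount was 1 line, so a difference between transfection products and a difference between lines cannot be told apart. No source used here gives the vector, its promoter or the mutation.

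In the integrated stress response, kinases that sense amino acid shortage, misfolded proteins, viral RNA or heme shortage phosphorylate the translation factor eIF2. Protein synthesis then slows in general, while the mRNA of the transcription factor ATF4 is translated more. ATF4, with partners such as the C/EBP factors and CHOP (the product of Ddit3), induces genes for amino acid supply, for the restraint of growth signalling and for the return of translation. Several of these genes also answer to other inputs, such as the unfolded protein response of the endoplasmic reticulum, low oxygen and DNA damage.

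The ATF4 and C/EBP composite element (TGATGNAA, read on both strands) was found in the RefSeq promoters of 5 members, Trib3, Atf3, Asns, Herpud1 and Nupr1. A promoter here is the window from 250 bases before to 50 bases after the start of the gene, in assembly GRCm38.p6, and 3.97% of all 32851 promoter entries held the element. Of these 5 genes Trib3 alone was among the members that fell in the transfected lines, as described further on. Elements outside this window or with other letters were not sought, so no match here does not show that a gene lacks the element. The cyclic AMP response element TGACGTCA was found in Ppp1r15a (1.79% of promoters), the AP-1 element TGANTCA in Ddit3 (7.81%), and the ER stress element II (ATTGG, any base, CCACG) in Herpud1 (0.0365%). No member held the ER stress element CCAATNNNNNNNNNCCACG (0.119%). The core of the hypoxia response element, ACGTG, was found in Ddit3, Ddit4, Asns, Ppp1r15a, Herpud1 and Nupr1 (19.6%), and in Herpud1 it overlapped the ER stress element II. Neither Sesn2 nor Atf4 held any of these letters in this window. The stretches printed here let the composite element of Trib3, which fell, be read beside the same element in the 4 members that did not pass, with the element of Ppp1r15a, which fell too. Counted from the start of the gene, the element lies at bases 15 to 22 in Trib3, at -23 to -16 in Asns, at -110 to -103 in Atf3 and Nupr1, and at -112 to -105 in Herpud1, while that of Ppp1r15a lies at -12 to -5. They run 5′ to 3′ on the strand of the gene, and capitals mark the ATF4 and C/EBP composite element or, in Ppp1r15a, the cyclic AMP response element. In Herpud1 the second run of capitals is the ER stress element II.
Trib3, chr2:152344028-152344057, minus strand: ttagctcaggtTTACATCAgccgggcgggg
Ppp1r15a, chr7:45526269-45526398, minus strand: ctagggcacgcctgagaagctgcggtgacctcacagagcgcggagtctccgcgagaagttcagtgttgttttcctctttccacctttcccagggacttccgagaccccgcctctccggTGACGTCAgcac
Atf3, chr1:191183334-191183463, minus strand: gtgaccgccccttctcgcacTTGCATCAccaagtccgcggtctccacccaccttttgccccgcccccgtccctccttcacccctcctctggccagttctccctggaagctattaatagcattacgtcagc
Asns, chr6:7693210-7693339, minus strand: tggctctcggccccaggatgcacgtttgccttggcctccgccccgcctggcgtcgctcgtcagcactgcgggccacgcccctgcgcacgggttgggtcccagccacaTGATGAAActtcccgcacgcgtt
Herpud1, chr8:94386299-94386428, plus strand: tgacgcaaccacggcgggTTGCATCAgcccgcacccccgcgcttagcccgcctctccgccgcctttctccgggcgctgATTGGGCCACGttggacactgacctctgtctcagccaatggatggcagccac
Nupr1, chr7:126625471-126625600, minus strand: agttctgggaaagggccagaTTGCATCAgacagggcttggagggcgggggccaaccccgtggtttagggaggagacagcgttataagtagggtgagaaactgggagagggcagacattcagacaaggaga

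**Figure D1:**
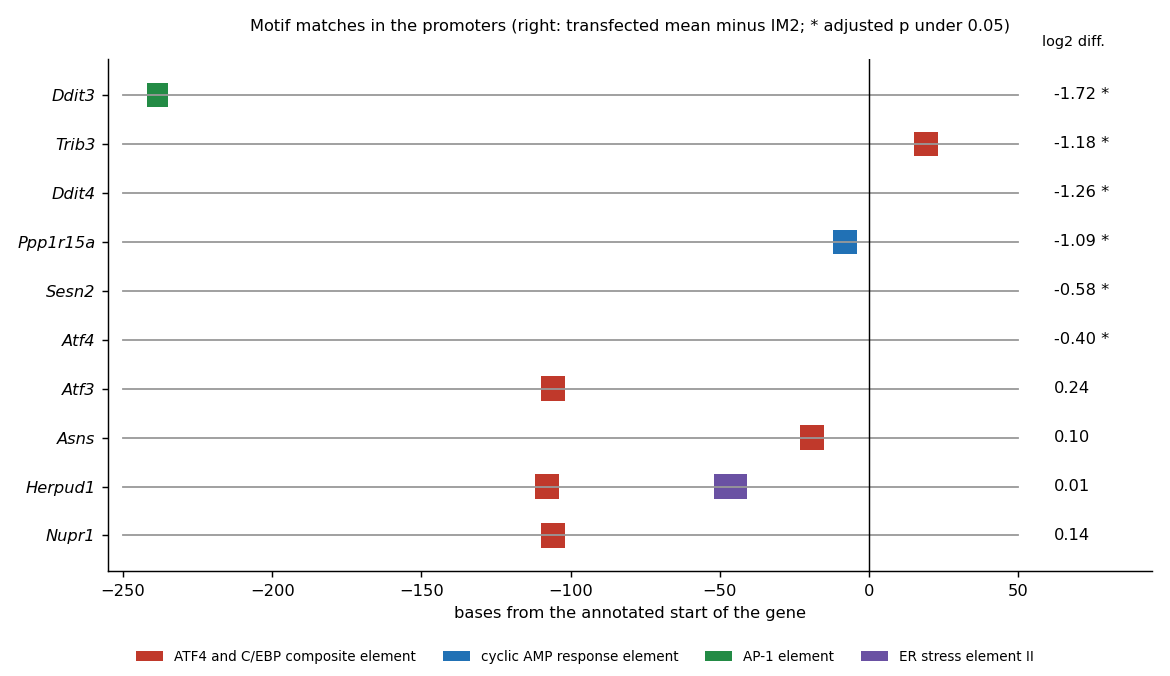
Matches of 4 elements in the promoters of the 10 members, drawn by distance in bases from the start of the gene (x axis), with the log2 difference of the transfected lines from IM2 printed at the right and a star where it passed. The composite element (red) lies in Trib3, which fell by 1.18, and in Atf3, Asns, Herpud1 and Nupr1, whose differences of 0.24, 0.10, 0.01 and 0.14 did not pass.

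The values are log2 ratios of a culture over the IM2 reference, each the mean of both dye orientations, so that -1 is a halved signal. The deposited base was taken to be 10, and sizes and folds hold only in that case, while signs and calls do not depend on it. Pabpn1 itself checked the labels, with log2 ratios of 1.45 to 1.71 in D7E cultures, 0.83 to 1.04 in D7F, 1.89 to 2.47 in WTA and 1.35 to 1.47 in WTD, against -0.24 to -0.13 in IM2. The ranges of D7E and WTD overlapped, so these values bear out the labels high and low only within a genotype. Pabpn1 was above 0 on 24 of 24 part I arrays of transfected cultures in both dye orientations. Part II, which carries Trib3, Ddit4 and Sesn2, has no such marker of direction. Array quality was uneven. Of the 60 arrays 10 had many values at the measuring limits or missing, and 6 of these were among the 12 IM2 arrays, including all 4 of IM2 culture 1, with 3 in WTA culture 1 and 1 in WTD culture 1. Both dye orientations of one IM2 culture correlated over probes with r between -0.35 and -0.17 on part I. In transfected cultures this r ran from -0.10 (WTA culture 1) to 0.26 (D7E culture 3) on part I. On part II it ran from -0.003 (WTA culture 2) to 0.18 (D7E culture 1), and in IM2 from -0.10 to 0.01. The orientations thus agreed poorly in all lines. Between arrays of one dye orientation the lowest r was -0.24 (IM2 culture 1 with D7E culture 3), or -0.48 with the limit values kept.

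To ask what the transfected lines shared, their mean was compared with IM2. Ddit3, Trib3, Ddit4, Ppp1r15a, Sesn2 and Atf4 fell in the transfected lines, by 0.40 to 1.72 on the log2 scale, and no member rose. Atf3, Asns, Herpud1 and Nupr1 differed by 0.01 to 0.24 and did not pass. The count was thus 6 of 10 members lower and 0 higher, where 8.83% of all 9721 probes tested passed as lower and 6.4% as higher (limma with Benjamini-Hochberg adjustment over all probes, threshold 0.05). For the same 6 genes every transfected culture lay below every IM2 culture, as it did for 6.78% of all probes. The median difference was -0.49 over the 10 members and 0.03 over all probes. Without the 10 arrays of poor quality 2 of the 6 calls were left, Ddit3 and Ppp1r15a, and the share of all probes that passed was then 1.46%, against 15.2% with them. In that fit 1 dye orientation was enough for a culture, so both orientations were not always averaged. IM2 on part II was then culture 2 in Cy5 and culture 3 in Cy3. Ppp1r15a lost IM2 culture 1 and gained culture 3, from its array in Cy5 alone (-0.03). In cultures of a cell line, as in any bulk RNA, a lower ratio can come from less of the RNA in each cell or from fewer cells that carry it, and the arrays cannot tell these apart. The collagen genes among the fibroblast markers moved the same way (Col3a1 -1.44, Col1a2 -1.35, Col6a1 -1.29, Col1a1 -1.22), all 4 fibroblast markers tested, while 5 of 17 skeletal muscle markers were higher. Their part in the stress gene results was not tested.

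**Figure D2:**
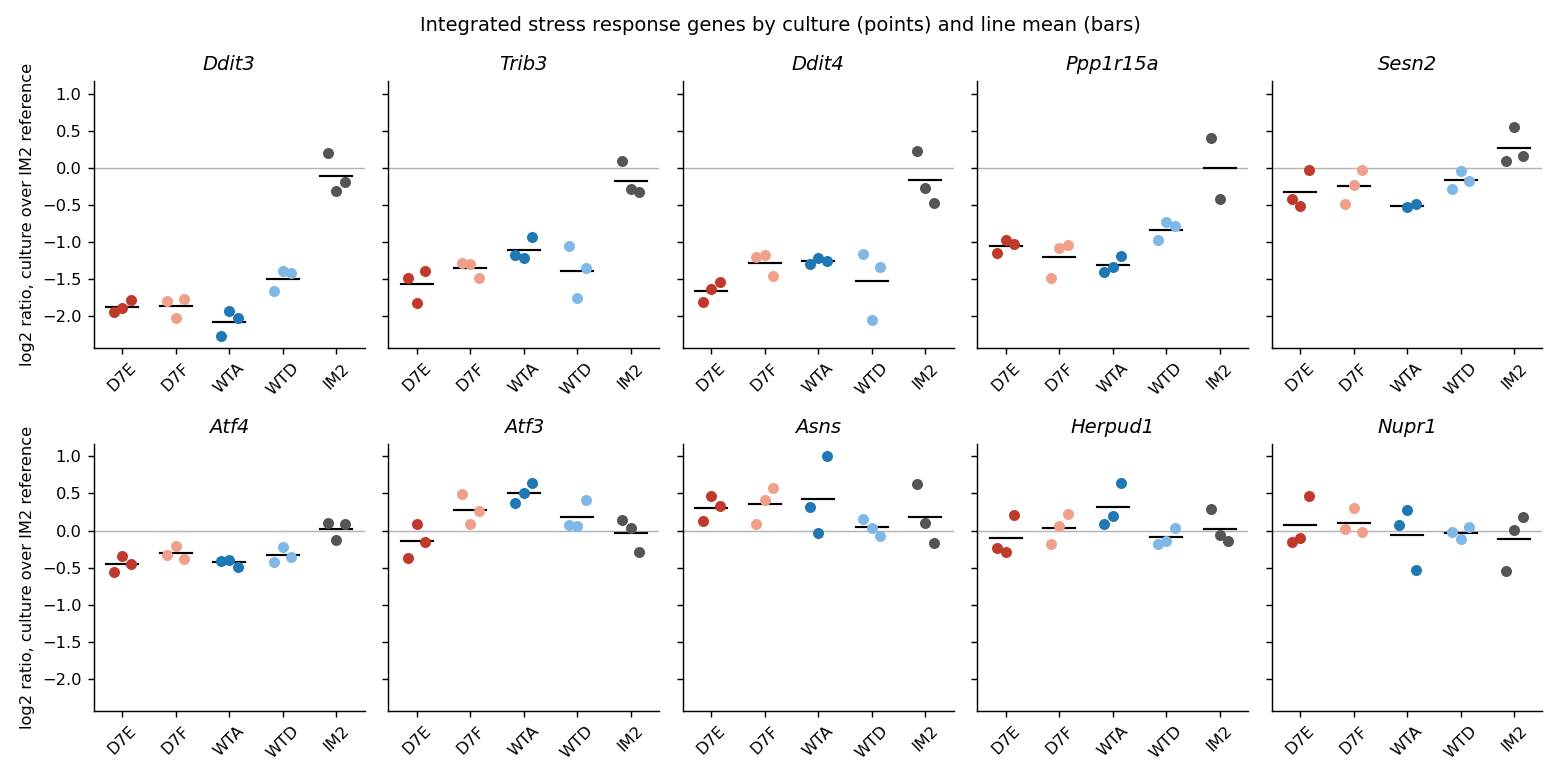
Log2 ratio of each culture over the IM2 reference (y axis) for the 10 members, by line (x axis), with points for cultures and bars for line means. In the panels of Ddit3, Trib3, Ddit4, Ppp1r15a, Sesn2 and Atf4 all transfected cultures lie under all IM2 cultures, and in the other 4 panels they overlap.

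Atf4 encodes a transcription factor whose protein is made through translational control, so its mRNA is only part of its regulation. The log2 ratios of Atf4 were -0.55, -0.35 and -0.45 in the D7E cultures, -0.33, -0.20 and -0.39 in D7F, -0.41, -0.40 and -0.48 in WTA and -0.43, -0.22 and -0.36 in WTD, against 0.10, -0.12 and 0.09 in IM2. All 12 transfected cultures were lower than IM2, yet the gap was narrow between D7F culture 2 and IM2 culture 2. The mean of the transfected lines fell by 0.40 (SE 0.08, adjusted p = 0.00791), which is 1.32-fold lower. Atf4 fell in D7E (-0.47, adjusted p = 0.0136) and WTA (-0.45, adjusted p = 0.017). In D7F the difference was -0.33 (adjusted p = 0.102) and in WTD -0.36 (adjusted p = 0.0627), and neither passed. Of 27 alternative settings the D7E call held under 22 and was lost without D7E culture 1 (adjusted p = 0.0535), and the WTA call held under 20 and was lost without IM2 culture 1 (0.0552) or 3 (0.0562). Without the arrays of poor quality the mean difference was -0.37 and did not pass (adjusted p = 0.126), and on the arrays with culture RNA in Cy5 alone it was -0.25 (adjusted p = 0.169).

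Ddit3 encodes CHOP, a transcription factor that ATF4 induces and that is linked to cell death under prolonged stress, and it changed most among the 10 members. The log2 ratios of Ddit3 were -1.94, -1.89 and -1.78 in D7E, -1.79, -2.02 and -1.76 in D7F, -2.26, -1.93 and -2.03 in WTA and -1.66, -1.39 and -1.42 in WTD, against 0.20, -0.31 and -0.20 in IM2. The 12 transfected cultures formed one group far under the IM2 cultures, with those of WTD at its upper end. The mean fell by 1.72 (SE 0.12, 95% interval -1.98 to -1.46, adjusted p = 1.1e-05), 3.29-fold lower than IM2. Each line passed alone, with differences of -1.77 in D7E (adjusted p = 8.48e-05), -1.75 in D7F (0.000127), -1.97 in WTA (2.66e-05) and -1.39 in WTD (0.000283). Ddit3 was the member whose calls held in every line under each of the 27 alternative settings run for a line, and without the arrays of poor quality its mean difference was -1.54 (adjusted p = 0.000172).

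Atf3, a factor of the same family that is induced by ATF4 and by many other stimuli, did not follow Ddit3. Its cultures had log2 ratios of -0.36, 0.09 and -0.16 in D7E, 0.49, 0.09 and 0.27 in D7F, 0.37, 0.51 and 0.64 in WTA and 0.08, 0.06 and 0.41 in WTD, against 0.15, 0.04 and -0.29 in IM2. The WTA cultures were the highest on average and lay above every IM2 culture, while the other lines overlapped IM2. The mean difference was 0.24 (95% interval -0.04 to 0.53, adjusted p = 0.233). In WTA the difference from IM2 was 0.54 (SE 0.17) with an adjusted p of 0.0555, which just missed the threshold. It was 0.0292 when only probes measured in all 15 cultures were tested.

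Ppp1r15a encodes GADD34, which directs a phosphatase to eIF2 and so ends the translational block. Log2 ratios of Ppp1r15a were -1.15, -0.98 and -1.03 in D7E, -1.48, -1.08 and -1.04 in D7F, -1.40, -1.34 and -1.18 in WTA and -0.98, -0.73 and -0.78 in WTD, against 0.41 and -0.42 in IM2. IM2 culture 3 had no value, because its array with culture RNA in Cy3 was at the lower limit, and the fit dropped that culture. The transfected cultures lay below both measured IM2 cultures, which themselves were far apart. The mean fell by 1.09 (SE 0.18, adjusted p = 0.00306), 2.13-fold lower, with n = 2 in IM2. Differences were -1.05 in D7E (adjusted p = 0.0116), -1.19 in D7F (0.0107), -1.30 in WTA (0.00387) and -0.82 in WTD (0.0452). The WTD call was marginal. It held under 5 of 26 alternative settings and in 2 of the 15 fits among them that left out one culture, and was lost even without a culture of another line, such as D7E culture 1 (adjusted p = 0.0606). Without IM2 culture 1 the calls of D7E (0.0749), D7F (0.0716) and WTD (0.284) were all lost. Over the 26 settings the call held in 21 for D7E, 22 for D7F and 23 for WTA. With the limit value of IM2 culture 3 kept, the mean difference was 0.02 (adjusted p = 0.987), so this result rests on which IM2 values count as measured.

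Trib3 encodes a pseudokinase that is a target of ATF4 and CHOP and dampens both ATF4 activity and AKT signalling. For Trib3 the log2 ratios were -1.48, -1.83 and -1.39 in D7E, -1.28, -1.30 and -1.48 in D7F, -1.18, -1.21 and -0.93 in WTA and -1.06, -1.75 and -1.35 in WTD, against 0.10, -0.29 and -0.33 in IM2. Every transfected culture was well below the lowest IM2 culture, and WTA culture 3 was nearest to it. The mean fell by 1.18 (SE 0.15, 95% interval -1.51 to -0.85, adjusted p = 0.000298), 2.27-fold lower. Trib3 fell in D7E by 1.39 (adjusted p = 0.000785), in D7F by 1.18 (0.00362), in WTA by 0.93 (0.008) and in WTD by 1.21 (0.00259). Of 27 alternative settings these calls held under 26 in D7E, 24 in D7F, 23 in WTA and 25 in WTD. Without the arrays of poor quality the mean difference was -0.88 (adjusted p = 0.0599).

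Ddit4 and Sesn2 encode proteins that restrain the growth kinase complex mTORC1. Ddit4 (REDD1) acts through the TSC complex and is also induced by low oxygen and glucocorticoids. Log2 ratios of Ddit4 were -1.80, -1.64 and -1.54 in D7E, -1.20, -1.18 and -1.45 in D7F, -1.29, -1.22 and -1.26 in WTA and -1.17, -2.05 and -1.34 in WTD, against 0.23, -0.27 and -0.47 in IM2. No transfected culture came near the lowest IM2 culture, and WTD culture 2 was the lowest of all 15. The mean fell by 1.26 (SE 0.18, 95% interval -1.64 to -0.88, adjusted p = 0.000538), 2.39-fold lower. By line the differences were -1.49 in D7E (adjusted p = 0.00112), -1.11 in D7F (0.0119), -1.08 in WTA (0.00795) and -1.35 in WTD (0.00318). The D7F call was lost without IM2 culture 1 (adjusted p = 0.0563) or D7F culture 3 (0.0526), and without the arrays of poor quality the mean difference was -0.88 (adjusted p = 0.112).

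Sesn2 (sestrin 2) reports leucine shortage to mTORC1 through the GATOR complexes. Its log2 ratios were -0.42, -0.51 and -0.03 in D7E, -0.48, -0.23 and -0.02 in D7F, -0.53 and -0.49 in WTA and -0.29, -0.04 and -0.17 in WTD, against 0.10, 0.55 and 0.16 in IM2. WTA culture 1 had a value in 1 dye orientation only and was dropped from the fit. The groups did not overlap, but the third cultures of D7E and D7F lay just under the lowest IM2 culture. The mean fell by 0.58 (SE 0.14, adjusted p = 0.0179), and Sesn2 fell in WTA (-0.78, adjusted p = 0.0256) and D7E (-0.59, adjusted p = 0.0495). In D7F the difference was -0.52 (adjusted p = 0.129) and in WTD -0.44 (adjusted p = 0.163). The D7E call held under 3 of 26 alternative settings, with 2 of the 15 fits that left out one culture, and the WTA call under 16. The call for the mean held under 21. Its adjusted p was 0.0742 without IM2 culture 2, 0.212 without the arrays of poor quality, and 0.882 (difference -0.04) when every IM2 array was read with the opposite sign.

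Asns, asparagine synthetase, is among the best known targets of ATF4 under amino acid shortage. Asns had log2 ratios of 0.13, 0.47 and 0.34 in D7E, 0.09, 0.42 and 0.57 in D7F, 0.32, -0.03 and 1.01 in WTA and 0.16, 0.03 and -0.07 in WTD, against 0.63, 0.10 and -0.17 in IM2. WTA culture 3 was the highest and IM2 culture 3 the lowest, and the groups overlapped throughout. The mean difference was 0.10 (95% interval -0.34 to 0.54, adjusted p = 0.776), an interval that leaves out a fall as large as that of Ddit3, Trib3 or Ddit4.

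Herpud1 encodes a membrane protein of the endoplasmic reticulum that takes part in the degradation of misfolded proteins. Herpud1 had log2 ratios of -0.23, -0.29 and 0.21 in D7E, -0.18, 0.06 and 0.22 in D7F, 0.09, 0.19 and 0.65 in WTA and -0.18, -0.14 and 0.04 in WTD, against 0.28, -0.06 and -0.15 in IM2. The cultures of all 5 lines overlapped, with WTA culture 3 the highest. The mean difference was 0.01 (95% interval -0.31 to 0.33, adjusted p = 0.973).

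Nupr1 encodes a small nuclear protein induced by stress, which also acts as a chromatin cofactor. Its log2 ratios were -0.15, -0.10 and 0.46 in D7E, 0.03, 0.30 and -0.03 in D7F, 0.08, 0.28 and -0.53 in WTA and -0.02, -0.11 and 0.05 in WTD, against -0.54, 0.01 and 0.18 in IM2. IM2 culture 1 and WTA culture 3 were the lowest, and no line stood apart. The mean difference was 0.14 (95% interval -0.27 to 0.55, adjusted p = 0.659).

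**Figure D3:**
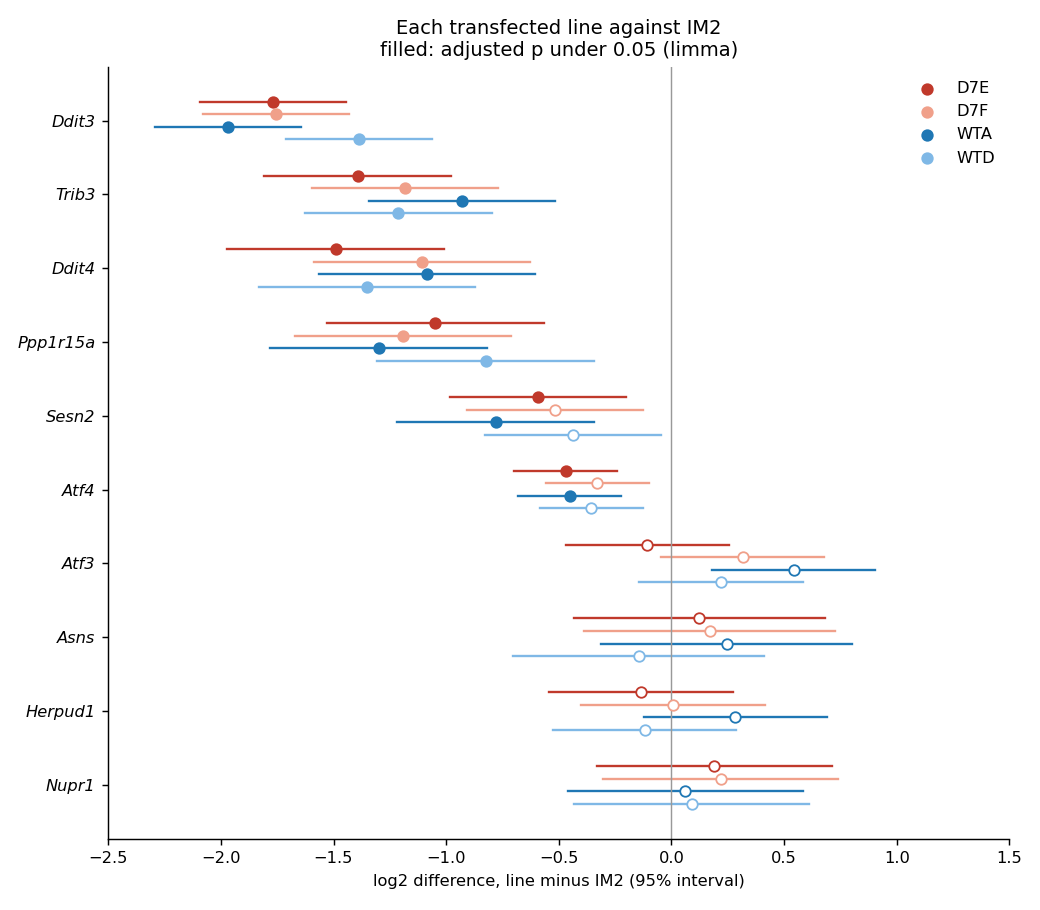
Log2 difference of each transfected line from IM2 (x axis) with its unadjusted 95% interval, for the 10 members (y axis), filled where the adjusted p was under 0.05. Ddit3, Trib3, Ddit4 and Ppp1r15a are filled in all 4 lines, Sesn2 and Atf4 in D7E and WTA, and the other members in none.

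Set against IM2 line by line, 6 members fell in D7E, where 8.19% of all probes passed as lower, and 4 fell in D7F, where 2.91% did. In WTA 6 fell (6.37%) and in WTD 4 (4.95%). No member rose in any line, where 4.11% of all probes passed as higher in D7E, 1.58% in D7F, 5.16% in WTA and 2.08% in WTD, although Atf3 was at an unadjusted p of 0.00681 in WTA. The medians over the 10 members were -0.53 in D7E, -0.42 in D7F, -0.62 in WTA and -0.40 in WTD, while those over all probes lay between 0.02 and 0.05. These 4 comparisons share the same 3 IM2 cultures, so a high or low IM2 value enters all of them.

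The mutant lines were set against the wild-type lines by comparing D7E with WTA, D7F with WTD, and both mutant with both wild-type lines. No member passed in any of these (limma with Benjamini-Hochberg adjustment), where 1.64%, 0.453% and 0.195% of all probes did. At an unadjusted p under 0.05 there were 3 of 10 members between D7E and WTA (14.6% of all probes), 1 between D7F and WTD (7.26%) and 1 between mutant and wild type (6.68%), which for the last 2 is near the share of all probes. Trib3 differed by -0.46 between D7E and WTA (95% interval -0.88 to -0.05, adjusted p = 0.268), and Herpud1 by -0.42 (-0.83 to -0.01, adjusted p = 0.32). Atf3 differed by -0.65 between D7E and WTA (SE 0.17, adjusted p = 0.0682), and its adjusted p was 0.0305 when only probes measured in all 15 cultures were tested. All D7E cultures lay under all WTA cultures for Atf3, Trib3 and Ddit4, and above them for Ppp1r15a. All D7F cultures lay under all WTD cultures for Ddit3 and Ppp1r15a, so the direction for Ppp1r15a was not the same. The share of all probes separated in either comparison was not counted, so how usual such splits are is not known. Between D7F and WTD, Ddit3 differed by -0.37 (95% interval -0.69 to -0.04, adjusted p = 0.594). Averaged over both amounts, the mutant minus wild-type differences were -0.08 for Ddit3 (95% interval -0.31 to 0.15), -0.22 for Trib3 (-0.51 to 0.08), -0.08 for Ddit4 (-0.42 to 0.26) and -0.06 for Ppp1r15a (-0.36 to 0.25). The 1 member under an unadjusted p of 0.05 there was Atf3, at -0.28 (95% interval -0.53 to -0.02, adjusted p = 0.729). These intervals are not adjusted for the number of genes and carry only the spread of cultures within lines, so they bound a difference between these 4 lines and not an effect of the mutation. Pabpn1 itself differed by -0.55 between the mutant and wild-type lines (adjusted p = 0.0552).

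Between the lines labelled high and low no member passed (0.381% of all probes passed). At an unadjusted p under 0.05 there was 1 member of 10, near the 7.87% of all probes, and it was Ddit3, at -0.30 for high minus low (95% interval -0.53 to -0.07, adjusted p = 0.464). The interaction of genotype and amount, given as the mean of D7E and WTD minus the mean of D7F and WTA, passed for 0 members and 2.37% of all probes, with 3 of 10 members and 14.3% of all probes at an unadjusted p under 0.05. These 3 were Atf3 (-0.37, adjusted p = 0.124), Ddit3 and Ppp1r15a. The order of the transfected lines differed between the genes that fell, with no test passed. Ddit3, Ppp1r15a and Sesn2 were lowest in WTA and highest in WTD, with interactions of 0.28 (adjusted p = 0.21), 0.31 (0.336) and 0.13 (0.731). Trib3 and Ddit4 were lowest in D7E, next lowest in WTD and highest in WTA, with interactions of -0.25 (adjusted p = 0.457) and -0.33 (0.377). Ddit3 and Ppp1r15a were on array part I, and Trib3 and Ddit4 on part II, as was Sesn2. On the WTD culture 2 array in Cy5, Trib3 was at -2.28 and Ddit4 at -2.20, the lowest array value of each. What the array part adds to these orders was not tested. Atf4 was lowest in D7E and highest in D7F, with an interaction of -0.02 (adjusted p = 0.934). Most neighbours in these orders overlapped in their cultures, such as D7E and D7F for Ddit3 with line means of -1.87 ± 0.08 and -1.86 ± 0.14 (SD, n = 3 each). Those that did not overlap were D7F and WTD for Ddit3, D7E and WTD for Ppp1r15a (by a narrow gap), and D7F and WTA for Trib3.

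The single arrays, which are those averaged in the culture values above, were also read one by one. Ddit3, Trib3, Ddit4, Ppp1r15a and Atf4 were below 0 on 24 of 24 arrays of transfected cultures, 12 in each dye orientation, and Sesn2 on 21 of 23. Atf3 was below 0 on 6 of 24, Asns on 5 of 24, and Herpud1 and Nupr1 on 11 of 24 each. On IM2 arrays Ddit3 and Trib3 were below 0 on 4 of 6, Ddit4 on 3 of 6, Ppp1r15a on 3 of 5, Atf4 on 2 of 6 and Sesn2 on 1 of 6. The share of all probes below 0 on every transfected array was not counted. The orientation moved the sizes. Ddit3 had a median of -1.96 with culture RNA in Cy3 and -1.57 in Cy5, Atf4 -0.58 and -0.21, and Ppp1r15a -1.21 and -0.99. Trib3, by contrast, was at -1.23 in Cy3 and -1.39 in Cy5.

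**Figure D4:**
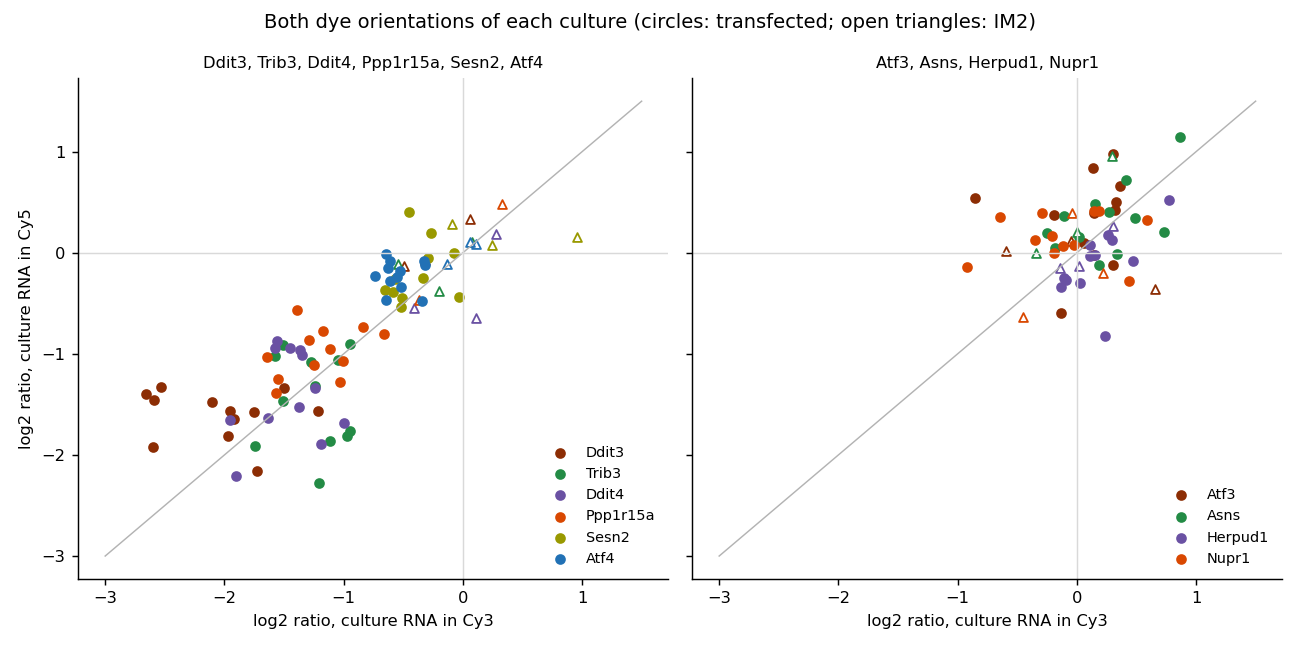
Log2 ratio of each culture with its RNA in Cy3 (x axis) and in Cy5 (y axis), for the 6 members that fell (left) and the 4 others (right), circles for transfected and open triangles for IM2 cultures. All circles of Ddit3, Trib3, Ddit4, Ppp1r15a and Atf4 lie in the quadrant where both orientations are below 0, while those at the right scatter around 0.

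The genes around the 10 members were read in the same comparison of the transfected lines with IM2, in lists of related genes. In that comparison 8.83% of all probes passed as lower and 6.4% as higher. The lists, too, were chosen with earlier results of these data known. Upstream, none of the 13 genes tested for the eIF2 kinases, eIF2, eIF2B and their regulators passed in either direction, with a median difference of 0.05. Of 13 partners of ATF4 and other stress transcription factors, 3 fell and 1 rose. Cebpg and Cebpb, which dimerise with ATF4 or CHOP, fell by 0.74 (adjusted p = 0.00225) and 0.72 (adjusted p = 0.00138), and both passed in each of the 4 lines. Atf5, another factor under translational control, fell by 0.32, with -0.76 in WTA and 0.00 in WTD, and Crem, a repressor or activator of the cyclic AMP response, rose by 0.71 (adjusted p = 0.0395).

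Downstream, the amino acid genes were read in 3 lists. Of 13 amino acid synthesis genes 1 fell and 1 rose, Aldh18a1 of proline synthesis by 0.65 (adjusted p = 0.00129) and Bcat1, a branched-chain aminotransferase, by 0.45 (adjusted p = 0.00757). Of 17 genes of the cytosolic aminoacyl-tRNA synthetases 1 fell, Eprs, by 0.72 on its part II probe (adjusted p = 0.0193), while its part I probe differed by 0.11 (adjusted p = 0.581). Among 9 amino acid transporters 3 fell, Slc38a2 by 0.64, Slc1a4 by 0.51 and Slc7a3 by 0.41, while Slc38a4 rose by 2.52 (adjusted p = 0.000284, n = 2 in IM2), by 2.53 in D7E, 2.73 in D7F, 1.95 in WTA and 2.86 in WTD. The medians were 0.08, 0.08 and -0.35 in these 3 lists. The counts of the synthesis and tRNA synthetase lists are near the shares of all probes, 8.83% lower and 6.4% higher.

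Of 17 other stress-induced targets 4 fell and 1 rose (median -0.17). Ero1a, an oxidase of the endoplasmic reticulum, fell by 2.47, Gadd45b by 0.95 and Eif4ebp1, a repressor of cap-dependent translation, by 0.81, and these 3 passed in all 4 lines. Sesn1, a relative of Sesn2 that is a target of p53, rose by 0.59 (adjusted p = 0.0163, n = 2 in IM2).

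The IRE1 and ATF6 arms of the unfolded protein response, with the folding machinery of the endoplasmic reticulum, had 10 of 22 genes lower and 0 higher (median -0.45). The chaperones Hspa5 (BiP) and Hsp90b1 fell by 1.45 (adjusted p = 0.000607) and 1.08 (adjusted p = 0.00461), the disulfide isomerase P4hb by 1.39 and Creld2 by 1.03. Each of these 4 passed in all 4 lines. A second Hspa5 probe on part II differed by -0.13 (adjusted p = 0.539), so the probes of this gene disagree. Herpud1, which also answers to this response, did not pass, as given above.

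The mTORC1 and hypoxia genes were read because Ddit4 and Sesn2 act on one and Ddit4 answers to the other. Of 17 mTORC1 pathway genes 2 rose and 2 fell (median 0.07), Castor1, an arginine sensor, by -1.20, Mlst8, a subunit of the complex, by 0.81, its inhibitor Deptor by 0.66 (0.39 and not passed on a second probe) and Mtor by -0.48. These mTORC1 counts are near the shares of all probes, 8.83% lower and 6.4% higher. Of 22 hypoxia-responsive genes 11 fell and 0 rose (median -0.60). Ndrg1 differed by -2.88 and, on its second probe, by -1.99, Adm by -2.62 and Bnip3 by -1.77. Bnip3 was at -2.17 in D7E, -1.62 in D7F, -0.88 in WTA and -2.40 in WTD, and passed in all of them.

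**Figure D5:**
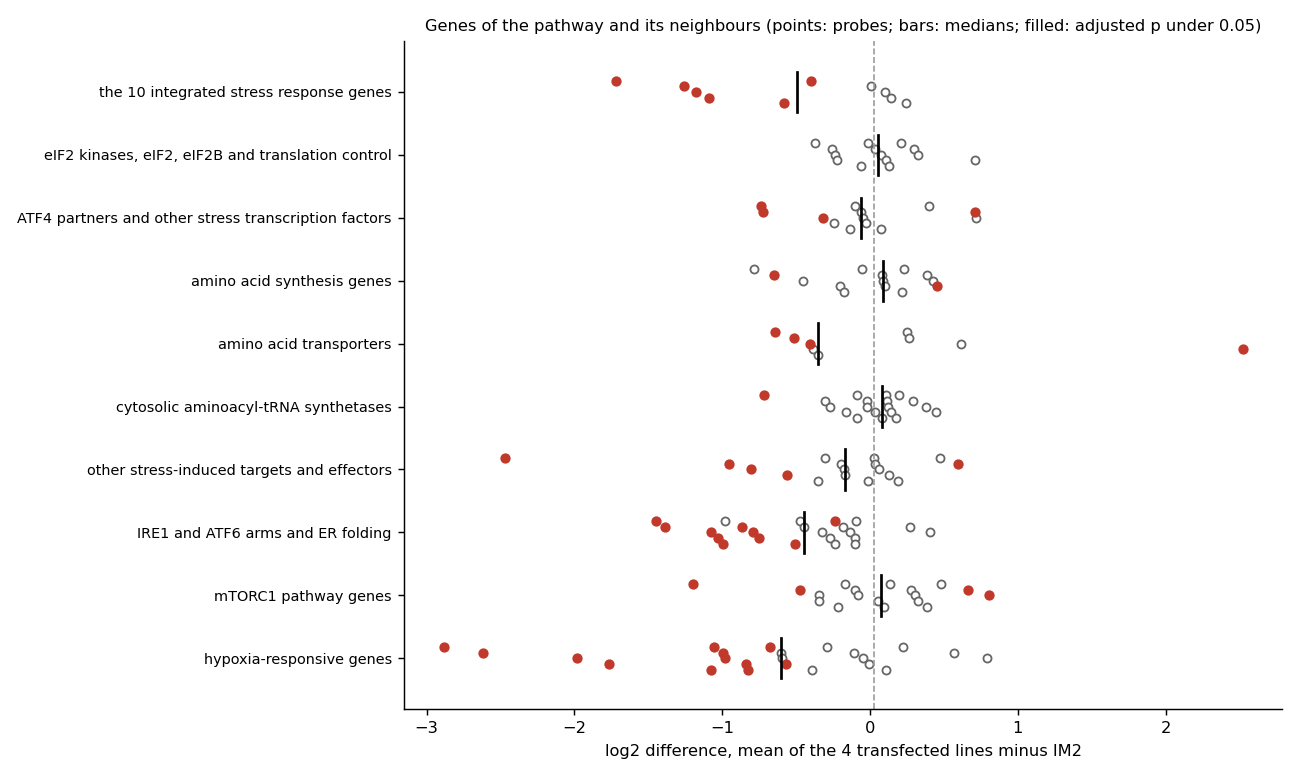
Log2 difference of the mean of the 4 transfected lines from IM2 (x axis) for each probe of the 10 members and of 9 lists of related genes (y axis), with bars for list medians, a dashed line for the median of all probes and filled points where the adjusted p was under 0.05. The members (median -0.49), the IRE1 and ATF6 list (-0.45) and the hypoxia list (-0.60) lie to the left, and the eIF2, amino acid synthesis and tRNA synthetase lists have medians between 0.05 and 0.08.

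The genes most like the mean of the members were sought by correlating each of 5535 probes with values in all 15 cultures with the mean profile of the 8 members that had all values too. These 8 leave out Ppp1r15a and Sesn2 and include Atf3, Asns, Herpud1 and Nupr1, which did not pass. Not all of them share the mean profile, since over the 15 cultures Ddit3 had r = 0.82 with Trib3 but -0.19 with Asns and -0.34 with Atf3. Over the 12 transfected cultures alone Ddit3 had r = -0.38 with Trib3, -0.48 with Asns and -0.12 with Atf3. The likeness of Ddit3 and Trib3 thus lies in the gap between IM2 and the transfected cultures. The highest Pearson correlations over the 15 cultures were those of Bhlhe40 (r = 0.957), H2-D1 (0.956), Ccng2 (0.955), Snhg5 (0.950) and Ndrg1 (0.944). Bhlhe40 encodes a transcriptional repressor of the circadian clock, H2-D1 a class I antigen, Ccng2 a cyclin linked to arrest of the cell cycle and Snhg5 a noncoding RNA that hosts small nucleolar RNAs. The mean profile separates IM2 from transfected cultures, and over the 12 transfected cultures alone r was 0.924 for Bhlhe40, 0.902 for Ccng2, 0.855 for H2-D1, 0.818 for Ndrg1 and 0.698 for Snhg5. Cultures of one line share their cells, and values of one culture share its arrays, so these values describe likeness and carry no test.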

How the data were processed

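RNA of 15 cultures (3 of each of 5 lines) was measured on 60 two-colour arrays against a common IM2 reference. The authors deposited log ratios without a stated base. They were taken as log10 values because the deposited values stop at -2 and 2, and were multiplied by 3.3219 to log2. How the arrays were scanned, background-corrected and normalised is not given in the sources used here. Groups came from the labels. The dyes in titles and channel sources differ for part I of WTA culture 3, and those of the channel sources were taken. For one D7F culture 1 array the description says high, and the title was used. Ratios were read as culture over reference. Rows with identical values were collapsed, values at the limits were treated as not measured, and both dye orientations were required and averaged for each culture. Probes with values in 2 or more cultures of each line (9721, for 8109 genes) were tested with limma 3.58.1 in R 4.3.3 (lmFit, eBayes), each part on its own with all lines in 1 model, adjusted over both parts by Benjamini-Hochberg, and the code was tested on simulated data. P-values rest on the spread among the cultures within a line. Arrays under 80% filled, or with over 20% of values at a limit, were called poor. The fit without them took 1 dye orientation as enough for a culture. Named were all members, of each related list at most the 4 genes that passed with the largest differences, Pabpn1, the collagen markers and the 5 genes closest to the mean profile of the members. The members and lists were chosen with earlier results of these data known. Alternatives were each dye alone, centring, scaling, other filters, kept limits, the turned sign of IM2 arrays, other fits and each culture left out. The number of arrays limits the precision.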

Additional observations from a re-analysis of the deposited data

How the results depend on the processing

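Over the 15 fits that each left out one culture, the number of members that passed was 5 to 6 for the mean of the transfected lines, 4 to 6 for D7E, 2 to 4 for D7F, 5 to 6 for WTA and 3 to 5 for WTD against IM2, and 0 for the comparisons among transfected lines. The 2 in D7F came without IM2 culture 1, where Ddit3 and Trib3 were left. When IM2 culture 1 or 2 was left out, Ppp1r15a had 1 IM2 culture, assumed to vary like the other groups. Without the arrays of poor quality, and with 1 dye orientation enough, the counts were 2 for the mean, 2 in D7E, 2 in D7F, 2 in WTA and 1 in WTD. With culture RNA in Cy5 alone they were 3 in D7E, 1 in D7F, 2 in WTA and 2 in WTD, and in Cy3 alone 2 in WTD. With centred and scaled arrays 3 passed in D7E and 1 in WTA. With only the lines compared in the fit the counts were 3 in D7E, 2 in D7F, 1 in WTA and 2 in WTD. With probes measured in all 15 cultures 1 passed between D7E and WTA, Atf3. With limit values kept, Ppp1r15a turned to 0.019 for the mean, 0.062 in D7E and 0.28 in WTD. The cause of these changes was not tested. The median of all probes moved to 0.12 with Cy5 alone and with limit values kept. Cultures of the same number were not alike throughout (r -0.296 to 0.531 over 60 pairs, 19 over 0.1). The highest r on each part was that of WTA with D7F culture 3, 0.427 on part I and 0.531 on part II. Whether cultures of one number were handled together was not tested. With the replicate number as a block 6 members passed for the mean, 6 in D7E, 4 in D7F, 6 in WTA and 3 in WTD, where Ppp1r15a was lost (adjusted p = 0.065), and 0 elsewhere. With line as a random block (correlation 0.042 and 0.044) 6 passed for the mean.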
